A study of Homo sapiens with 4 samples.

Results

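The genes described here are splicing regulators and related RNA-binding proteins: the SR proteins, the hnRNP proteins and the splicing factor families known from neurons. They were chosen by symbol as a list of 60 genes, which matched 61 gene identifiers because MATR3 has 2 in the annotation, out of 77973 genes in the count table. All 61 passed the minimum of a mean of 20 reads per library and were among the 8145 genes tested.

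SR proteins bind exonic enhancers and, as a rule, favour the use of an exon, while many hnRNP proteins bind silencers and favour skipping. Neuronal factors such as RBFOX, NOVA, ELAVL, CELF and PTBP2 set splicing programs that change as a progenitor becomes a neuron. Many of these genes regulate their own messenger RNA: the protein promotes inclusion of a poison exon, or skipping of a coding exon, so that the reading frame ends early and the transcript becomes a target of nonsense-mediated decay.

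Full-length transcripts were sequenced by PacBio Iso-Seq from cortical neurons (i3N) made from the human induced pluripotent stem cell line KOLF2.1J. Every culture carried doxycycline-inducible human NGN2, a transcription factor that drives neuronal fate, and constitutive dCas9-BFP-KRAB, a CRISPR interference (CRISPRi) repressor. All received a lentiviral guide RNA, were selected with puromycin, used as transduced pools rather than clones, and were differentiated with doxycycline. The control library came from cells with a non-targeting guide, the knockdown library from cells with a guide against TDP-43, the azacytidine library from cells treated with 5 µM 5-Azacytidine, a DNA methyltransferase inhibitor, for 72 hours, and the fourth library from cells with both. The labels put harvest at day 12 or day 15 according to use and do not say which applied here; they also do not say whether the cells without azacytidine received a vehicle. With 1 library per group nothing below could be checked against replicates, and the tests compare the reads of libraries, not conditions.

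The libraries held 466337 to 767621 reads assigned to genes. TARDBP (chr1:11012344-11030528), which encodes TDP-43, had 104 reads in the control, 72 in the knockdown, 73 with azacytidine and 43 with both. Scaled for library size, the log2 ratio of knockdown to control was -0.67 (95% interval -1.13 to -0.23, adjusted p = 0.017, exact binomial test). That of both treatments to azacytidine was -0.73 (-1.31 to -0.17, adjusted p = 0.0573), not past the threshold of 0.05. Both are less than a 2-fold reduction. Of the neuron markers listed, all 15 passed the read minimum, with MAP2 at 540, 761, 319 and 162 reads and TUBB3 at 52, 38, 76 and 43 in the order given above. Of the 11 cortical glutamatergic markers 6 were tested. SLC17A6, a vesicular glutamate transporter, had 101, 170, 103 and 82 reads, NEUROD2 10, 12, 23 and 37 (called higher with azacytidine) and POU3F2 98, 123, 30 and 43 (called lower), while NEUROD6 was at 0 in every library. All 10 tested proliferation markers were lower with azacytidine, and the summed level of that list of 14 was 1555, 1592, 184 and 163 in TMM-scaled CPM. The 10 neural progenitor markers summed to 923, 842, 182 and 146, and 3 of the 5 tested were called lower with azacytidine, while NES and SOX2 were not. The part of these markers in the results below was not tested, and in bulk RNA fewer cells of a type and less RNA per cell cannot be told apart.

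The reads covered 496 transcripts of the 61 genes, with a median of 7 per gene and up to 32 in HNRNPA2B1. Sequences of several exons through which members can cut short their own reading frame are shown first, because the isoform results turn on them. Each line runs 5′ to 3′ on the gene's strand from the start of the exon through the first in-frame stop codon, which is in capitals; build GRCh38 (hg38), sequence from the GENCODE 29 transcripts.
TRA2B, 276-base exon, minus strand, chr3:185931577-185931852: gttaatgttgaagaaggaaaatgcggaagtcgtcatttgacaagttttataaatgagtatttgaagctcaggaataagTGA
SRSF3, 456-base exon, plus strand, chr6:36599821-36600276: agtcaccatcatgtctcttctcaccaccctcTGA
SRSF6, 268-base exon, plus strand, chr20:43459153-43459420: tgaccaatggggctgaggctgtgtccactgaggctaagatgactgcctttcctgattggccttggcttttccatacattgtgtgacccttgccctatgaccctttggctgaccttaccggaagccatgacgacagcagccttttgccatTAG
SRSF7, 449-base exon, minus strand, chr2:38748898-38749346: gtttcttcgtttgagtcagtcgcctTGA
SRSF11, 62-base exon, plus strand, chr1:70230557-70230618: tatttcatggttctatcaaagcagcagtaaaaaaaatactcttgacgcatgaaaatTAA
NOVA1, 102-base exon, minus strand, chr14:26549680-26549781: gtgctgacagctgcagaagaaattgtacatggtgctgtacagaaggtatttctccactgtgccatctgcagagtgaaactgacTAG
TIAL1, 68-base exon, minus strand, chr10:119580471-119580538: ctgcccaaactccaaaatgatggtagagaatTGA
In each of these a stop codon lies inside the exon when the exon is inserted alone into the reference coding transcript and read in the frame of its annotated start.

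An exon that acts by skipping and an exon that keeps the frame complete the set and are shown whole. The PTBP2 exon belongs to the coding transcript, and skipping it shifts the frame; the SRRM1 exon has a length that is a multiple of 3 and is the only member exon called with azacytidine.
PTBP2, 34-base exon, plus strand, chr1:96806419-96806452: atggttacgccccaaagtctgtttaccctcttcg
SRRM1, 42-base exon, plus strand, chr1:24663183-24663224: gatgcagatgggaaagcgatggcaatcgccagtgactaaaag

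Cassette exons were taken from the annotation deposited with the counts: an internal exon that lies inside an intron of another transcript of the gene. Members had 169 such exons in 48 genes with reads. For 54 of them, in 30 genes, at least 20 reads were informative and inserting or removing the exon in the reference coding transcript moved the stop to more than 50 bases before the last exon junction, the arrangement that nonsense-mediated decay recognises. In 19 exons of 16 genes there were at least 10 reads with and 10 without the exon, and at least 10 reads of transcripts with such a stop on the predicted side. Of these, 14 act by inclusion and 5 by skipping.

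Among the SR proteins, TRA2B, an activator of exon inclusion, had its 276-base poison exon in 22 of 59 informative reads in the control (37.3%, Wilson 95% interval 26.1 to 50), 20 of 76 in the knockdown (26.3%), 17 of 42 with azacytidine (40.5%) and 15 of 41 with both (36.6%). With the exon alone inserted into the reference coding transcript, the frame ends after 38 codons in place of 288. Of the 74 TRA2B inclusion reads over the 4 libraries, 46.8 were in transcripts read as ending early. The 4 intervals overlapped, and no pair passed Fisher's exact test adjusted over the 5002 cassette exons tested.
SRSF3, a small SR protein that also acts in export of RNA, included its 456-base exon in 19 of 95 reads (20%), 17 of 70 (24.3%), 12 of 47 (25.5%) and 8 of 23 (34.8%), in the same order. SRSF6 included its 268-base exon in 17.0%, 14.1%, 21.3% and 24.6% of 57 to 128 reads. For SRSF7 the 449-base exon stood at 9.30%, 10.3%, 8.82% and 15.0%, resting on 3 or 4 inclusion reads per library. The share was low throughout in SRSF10, a splicing repressor, whose 363-base exon was in 5.22%, 9.32%, 6.58% and 10.8% of reads. SRSF12 had its 347-base exon in 14 of 34 reads in the control (41.2%) and in 27.3%, 26.1% and 25% elsewhere. None of these differences passed the adjusted test. The counting error was wide: the interval of SRSF12 in the control ran from 26.4% to 57.8%, and that of SRSF7 with both treatments from 5.24% to 36.0%.

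SRSF11, an SR-related protein that binds U2AF, had 3 poison exons of 62, 109 and 117 bases that lie mostly in the same transcript, ENST00000687381.1, which ends after 131 codons in place of 484, at the stop in the 62-base exon shown above. The 117-base exon was in 25 of 136 reads in the control (18.4%, 12.8 to 25.7), 49 of 170 in the knockdown (28.8%, 22.5 to 36.0), 14 of 100 with azacytidine (14.0%, 8.53 to 22.1) and 38 of 112 with both (33.9%, 25.8 to 43.1). Both knockdown libraries stood above both libraries without it. The pair on azacytidine passed the adjusted Fisher's exact test (p = 0.0293) and the pair without azacytidine did not (p = 0.33), so the exon was not called. The main SRSF11 transcript was the coding ENST00000370949.2, with 42.9% of the gene's transcript reads over the 4 libraries. Another coding transcript, ENST00000370950.7, also has 484 codons, and shares of transcripts within a gene depend on each other. It had 31 of 138 transcript reads in the control (22.5%), 16 of 170 in the knockdown (9.41%), 18 of 103 with azacytidine (17.5%) and 2 of 111 with both (1.80%). It was called lower with the knockdown in both pairs (adjusted p = 0.0345 and 0.00326, Fisher's exact test), where 0.35% of 15446 transcripts were. No SRSF11 call was made when only full-length or only uniquely assigned reads were counted.

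SRSF2, which binds enhancers in many constitutive exons, carries its stop-changing exon of 104 bases after the normal stop codon, in the 3′ untranslated region, so that the protein stays whole while the stop comes to lie before a junction. The exon was in 10 of 56 reads in the control (17.9%, 10.0 to 29.8), 9 of 44 in the knockdown (20.5%), 18 of 36 with azacytidine (50%, 34.5 to 65.5) and 8 of 23 with both (34.8%, 18.8 to 55.1). Azacytidine against control passed the adjusted Fisher's exact test (p = 0.0353) and both treatments against the knockdown did not (p = 0.669). HNRNPDL, a paralogue of HNRNPD, has an exon of 105 bases in the same kind of place, included in 23.1%, 24.3%, 30% and 31.0% of 110 to 156 reads, with no pair past the test.

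Among the other inclusion exons, NOVA1, a neuronal factor that binds YCAY clusters, had its 102-base exon in 32 of 106 reads (30.2%), 47 of 143 (32.9%), 33 of 113 (29.2%) and 35 of 116 (30.2%). The 4 intervals of NOVA1 overlapped, the lowest bound being 21.6% and the highest 40.9%. TIAL1, a stress granule protein that promotes weak 5′ splice sites, had 15 of 73 (20.5%), 31 of 115 (27.0%), 10 of 52 (19.2%) and 19 of 59 (32.2%). The 83-base exon of HNRNPLL, a paralogue of HNRNPL, was at 7.95%, 13.4%, 12.7% and 14.8%.

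The exons that act by skipping were included in most reads of every library. HNRNPK, a poly(C)-binding protein, included its 44-base exon in 375 of 382 reads in the control (98.2%) and in 97.0%, 99.4% and 96.3% in the others. HNRNPH1, which binds runs of G, included its 139-base exon in 90.6%, 87.8%, 95.1% and 89.1%. PTBP2 is the neuronal paralogue of PTBP1. It included its 34-base exon in 92 of 106 (86.8%), 139 of 179 (77.7%), 65 of 76 (85.5%) and 58 of 66 (87.9%). With this exon alone removed from the reference coding transcript, the frame ends after 356 codons in place of 531. Only 13.3 of the 73 PTBP2 skipping reads over the 4 libraries were in transcripts read as ending early. HNRNPM had exons of 53 and 8 bases included in 80.9% to 92.2%. No pair passed the adjusted test for these 5.

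Of the 14 inclusion exons, 10 had a higher share with the knockdown in both pairs and 2 a lower share (71.4% and 14.3%), where 28.4% and 23.9% of all tested cassette exons did so. The median change of the 14 was 3.39 and 3.72 percentage points, beside 0.459 and 0.144 over all. With azacytidine 7 were higher in both pairs and 2 lower, beside 30.4% and 27.6% of all. The 3 SRSF11 exons share transcripts and count 3 times in these numbers. These are descriptions, since only the 2 exons named above passed an adjusted test in any pair. The inclusion values of stop-changing exons also depended on the reads counted. From full-length reads 21 values moved and 27 stayed the same, and from uniquely assigned reads 25 moved and 51 stayed the same.

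**Figure D1:**
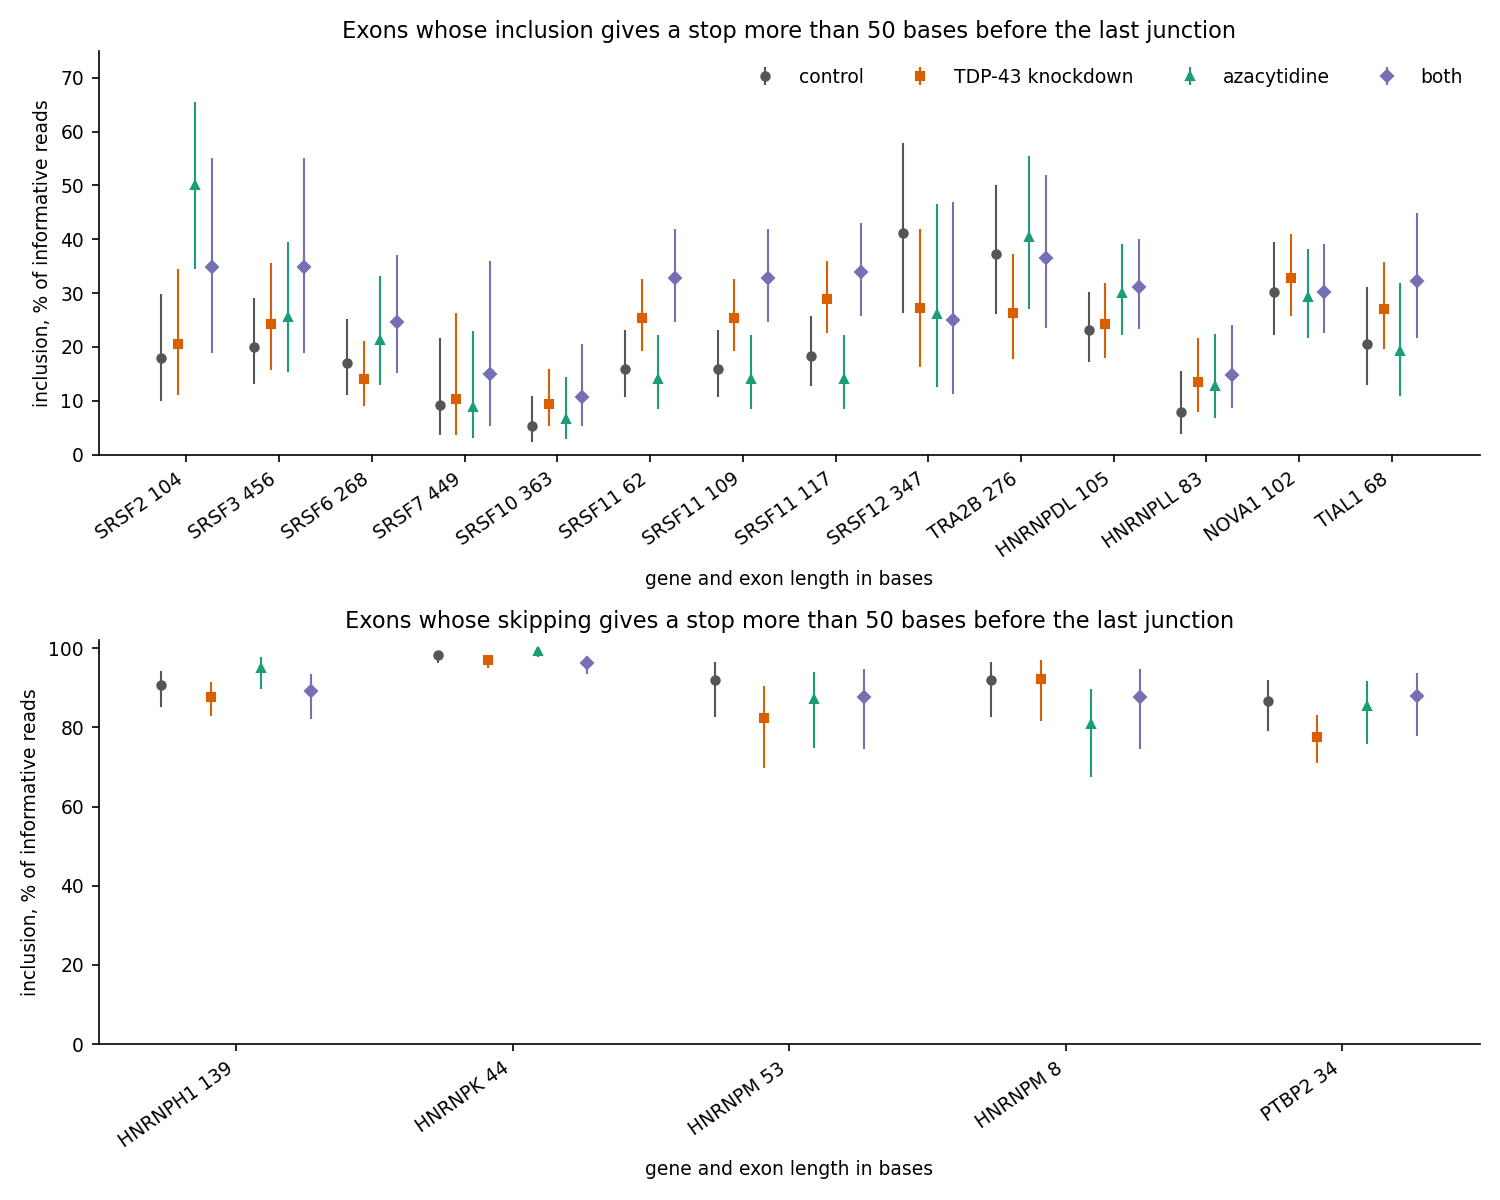
Inclusion in percent of informative reads for the 19 exons, by gene and exon length; each point is 1 library and each bar its Wilson 95% interval, which covers counting error only. The SRSF11 exons are higher in both knockdown libraries (28.8% and 33.9% for the 117-base exon) than in the others, SRSF2 is highest with azacytidine at 50%, and the exons of the lower panel stay at or above 77.7%.

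The other 35 exons lacked reads on the predicted side or lay in transcripts whose frame could not be read as ending early; they include all the exons of 14 further genes. TRA2A, the paralogue of TRA2B, included a 301-base exon in 29 of 53 reads (54.7%), 41 of 57 (71.9%), 15 of 36 (41.7%) and 26 of 41 (63.4%), but its annotated transcripts with the exon start translation downstream of it. SRSF4 included an exon of 175 bases in 27 of 46 reads in the control (58.7%) and in 34.8%, 29.2% and 34.3% elsewhere, mostly in a transcript annotated as a retained intron. PTBP3, a paralogue of PTBP1, included a 34-base exon in 15.6%, 2.35%, 0% and 47.4% of 38 to 85 reads. The library with both treatments stood above the others, past the adjusted Fisher's exact test against azacytidine alone (p = 1.89e-05), while knockdown against control was not past it (p = 0.0669). The 34-base exon of PTBP1, whose skipping limits that gene's own output, was included in 105 of 105 reads in the control, 115 of 116 in the knockdown, 46 of 46 with azacytidine and 38 of 38 with both. ELAVL4 had an 87-base exon in 1 of 57, 1 of 53, 2 of 43 and 4 of 36 reads, and HNRNPL a 70-base exon in 0 of 80, 3 of 108, 2 of 93 and 0 of 81. HNRNPD had its 107-base exon after the stop in 0, 0, 1 and 3 reads. EWSR1 included a 35-base exon in 21 of 25, 24 of 30, 34 of 35 and 24 of 26 reads. A form of that exon with the same end and an earlier start was in 62 of 66, 82 of 88, 51 of 52 and 59 of 61. Reads that include either form are not in the total of the other. MATR3 included a 62-base exon in 97.7% to 99.0%. In HNRNPC 1 read skipped the 115-base exon, in RBFOX1 3 reads lacked the 40-base exon, and the exons of ELAVL1, MBNL1 and TIA1 were in 0 or 1 read per library.

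Summed over all 61 genes, 505 of 5976 transcript reads in the control (8.45%, 7.77 to 9.18) came from transcripts whose stop lies more than 50 bases before the last junction, 8.83% in the knockdown, 8.57% with azacytidine and 10.7% (9.75 to 11.6) with both. When transcripts that keep the normal stop codon were set aside, 5.42%, 6.50%, 5.20% and 7.52% remained. Among the families the share was high in the SR proteins, at 20.7% (18.3 to 23.3), 22.8%, 25.3% and 27.4% (24.0 to 31.2). In the NOVA pair it was 22%, 23.0%, 19.9% and 21.1%. All of these NOVA reads were in NOVA1, at 29.2%, 32.9%, 26.5% and 29.3% of its transcript reads, and NOVA2 had 0 in every library. The hnRNP proteins stood at 9.45%, 9.90%, 9.15% and 11.9%, and at 2.61%, 4.02%, 1.85% and 4.83% without transcripts that keep the normal stop. The RBFOX, ELAVL and CELF families had at most 2.34% in any library. For 5.94% to 8.21% of the reads of a library the frame could not be read.

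SRSF5, an SR protein of the splicing enhancer type, stood apart with 80.2% of its 345 transcript reads in such transcripts: 78.0% in the control, 92.9% in the knockdown, 74.4% with azacytidine and 72.9% with both. Its main transcript was unannotated and ended after 124 codons. SRSF7 had 41.1%, with 38.1%, 50%, 35.4% and 43.3% by library. HNRNPA2B1, a protein of RNA transport granules, had 59.5%, but only 7.33% when transcripts with the normal stop were set aside, because most of its reads carry an intron spliced within the 3′ untranslated region. In 13 genes the share over the 4 libraries passed 20%, and 36 genes had any such reads.

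Levels of the members moved little with the knockdown. In knockdown against control the median log2 ratio of the 61 was 0.18, and in both treatments against azacytidine 0.02, beside 0.18 and 0.05 over all 8145 genes. Scaling by total counts in place of TMM factors moved the median of all genes in knockdown against control from 0.18 to -0.04, and that of the members with it. A gene was called where the adjusted p was under 0.05, the ratio at least 2-fold and the direction the same in both pairs. ELAVL4 was called higher, which is 1 of 61 where 0.626% of all tested genes were, and no member was called lower, where 0.344% of all were (0.97% in either direction). In knockdown against control alone 2 members passed the limits, ELAVL4 and PTBP2, where 8.34% of all genes did; in both treatments against azacytidine 3 passed as higher and 2 as lower, where 8.45% did.

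ELAVL4 (chr1:50024029-50203772), which encodes the neuronal RNA stabiliser HuD, had 89 reads in the control, 256 in the knockdown, 63 with azacytidine and 164 with both. Both knockdown libraries lay above both others. The log2 ratios were 1.37 (1.03 to 1.74, adjusted p = 2.35e-14) and 1.40 (0.98 to 1.85, adjusted p = 4.64e-10). The rise lay in reads counted for the gene but assigned to none of its transcripts: 32 of 89 in the control (36.0%), 203 of 256 in the knockdown (79.3%), 20 of 63 with azacytidine (31.7%) and 128 of 164 with both (78.0%). Reads assigned to a transcript numbered 57, 53, 43 and 36. Counted from the transcript tables ELAVL4 was therefore not called, and from uniquely assigned reads its log2 ratios were -0.57 and -0.32. Where in the gene the other reads lie was not analysed here.

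The same measure, the share of a gene's reads that have no transcript, was examined for all members after ELAVL4 had been seen. It was higher with the knockdown in 3 of 61, where 0.884% of the 8145 genes were, and lower in none, where 0.0614% were. Over all tested genes together it was 34.9%, 40.1%, 31.5% and 39.1%, so the pooled share was higher in both knockdown libraries. Gene by gene it was higher in both pairs in 3198 of the 8145 and lower in both in 1116, and among members in 24 and 6. It fell in knockdown against control in HNRNPA2B1, from 57 of 191 to 9 of 176 reads (29.8% to 5.11%, adjusted p = 3.39e-08, Fisher's exact test), and in HNRNPC, from 61 of 197 to 27 of 220 (31.0% to 12.3%, adjusted p = 0.000156). On azacytidine neither gene passed the test (adjusted p = 0.909 and 0.451). Beside the called genes, it rose past the test in knockdown against control in TRA2A (18.5% to 44.3%), TRA2B (8.97% to 30.7%) and PTBP3 (7.25% to 24.8%). PTBP2 (37.2% to 55.8%), NOVA1 (29.3% to 45.4%), CELF4 (29.2% to 57.0%) and CELF5 (17.6% to 54.7%) did the same. On azacytidine none of these passed, while HNRNPK, HNRNPL and RBFOX1 rose past the test in that pair only. HNRNPH1 had 108 of 309 reads in the control without a transcript (35%), 299 of 574 in the knockdown (52.1%), 63 of 197 with azacytidine (32.0%) and 158 of 299 with both (52.8%), with adjusted p of 5.12e-05 and 0.000463 by Fisher's exact test. HNRNPD, known as AUF1 for its binding of AU-rich elements, had 3 of 127 (2.36%), 29 of 140 (20.7%), 10 of 72 (13.9%) and 69 of 149 (46.3%). It was called with the knockdown (adjusted p = 9.02e-05 and 0.000136) and also with azacytidine (adjusted p = 0.0419 and 0.000235), where 0.184% of genes were higher and 0.773% lower. With a change of at least 20 percentage points required, only ELAVL4 was still called.

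**Figure D2:**
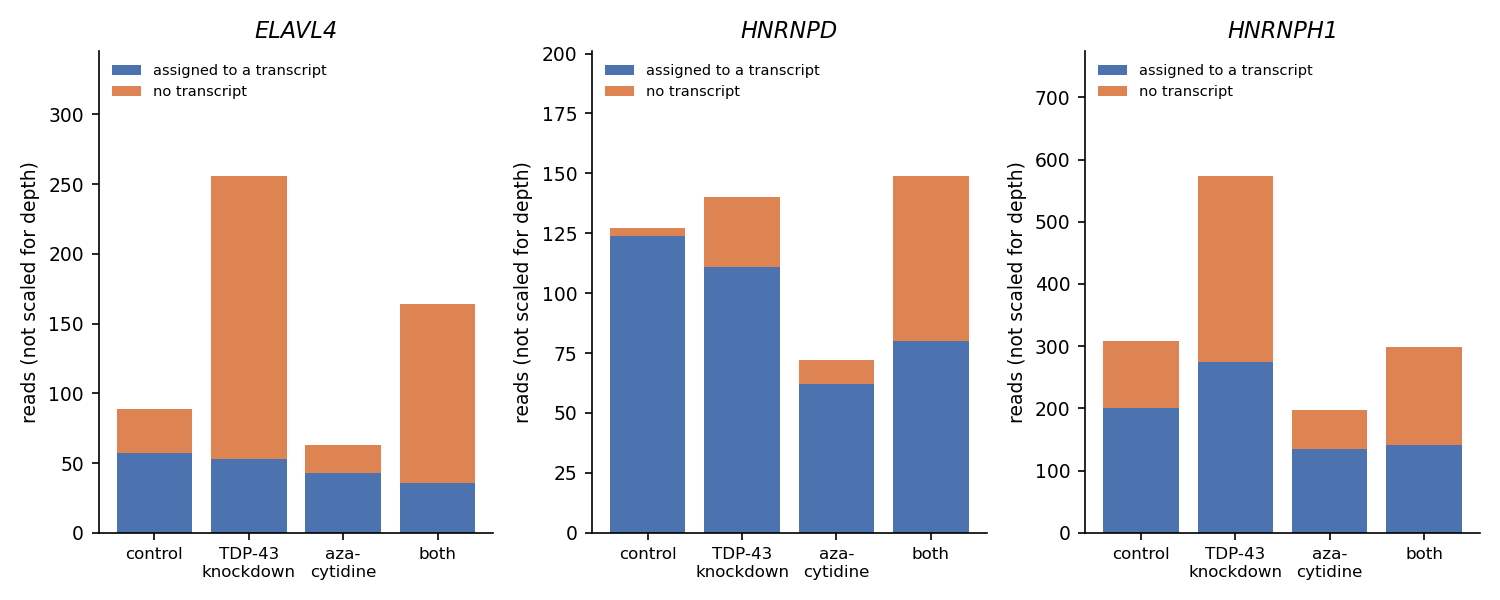
Reads of ELAVL4, HNRNPD and HNRNPH1 in each library, not scaled for depth, split into those assigned to a transcript and those counted for the gene only. In ELAVL4 the assigned reads stay between 36 and 57 while the others reach 203 in the knockdown library.

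Of the members with the same sign in both pairs, ranked by the smaller of the 2 ratios, HNRNPH1, RBFOX1 and SRRM1 followed ELAVL4 on the positive side for the knockdown. HNRNPH1 had 309, 574, 197 and 299 reads, with log2 ratios of 0.75 (0.55 to 0.95) and 0.63 (0.37 to 0.90), both past the adjusted test but under 2-fold. RBFOX1, a neuronal factor that binds GCAUG, had 134, 206, 41 and 117 reads and ratios of 0.47 and 1.53. Of the RBFOX1 reads, 64, 81, 38 and 31 were assigned to a transcript and 70, 125, 3 and 86 were not. The rise on azacytidine therefore lay in reads without a transcript. SRRM1, a coactivator that bridges SR proteins and snRNPs, had 122, 181, 73 and 111 reads and ratios of 0.42 (adjusted p = 0.0619) and 0.63 (adjusted p = 0.031). At the low end of the same ranking stood HNRNPA1, an hnRNP that opposes SRSF1, with 149, 84, 96 and 43 reads. Its ratios of -0.97 (-1.37 to -0.58, adjusted p = 1.33e-05) and -1.12 (-1.68 to -0.60, adjusted p = 0.000307) missed the 2-fold limit in the pair without azacytidine, and it was called lower with total counts or DESeq2 size factors. HNRNPA1 has processed pseudogenes, so its counts are uncertain. KHDRBS1, the signal-dependent factor Sam68, had 114, 86, 96 and 55 reads (-0.55 and -0.77, adjusted p = 0.0448 and 0.0145). HNRNPH2 had 29, 22, 39 and 18 reads, with neither pair past the test. ELAVL3 had 124, 95, 152 and 106 reads and ratios of -0.53 and -0.49 (adjusted p = 0.043 and 0.049).

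By family, 11 of the 12 SR proteins had the same sign in both knockdown pairs, 5 positive and 6 negative, and their medians were -0.13 and -0.10. The 17 hnRNP proteins had medians of -0.04 and 0.02. None of these was called in either direction with the knockdown. HNRNPK had 546, 683, 433 and 456 reads (0.18 and 0.10) and HNRNPU, a scaffold of nuclear RNA, 346, 390, 227 and 227 (0.03 in both pairs), neither past the test. HNRNPM, a GU-binding repressor, had 133, 81, 67 and 64 reads and passed only against the control (-0.86, adjusted p = 0.000327, and -0.04). The FET proteins EWSR1 and TAF15, which bind nascent RNA, had 168, 228, 159 and 204 and 35, 19, 11 and 16 reads, with no knockdown pair past the test. MATR3, a nuclear matrix protein, had 364, 470, 323 and 237 reads under ENSG00000015479.20 (0.22 and -0.42, the latter at adjusted p = 0.00842) and 92, 79, 79 and 61 under an overlapping identifier, so its reads may be divided between the 2. NOVA1 had 150, 262, 224 and 191 reads and CELF4, a CELF protein of excitatory neurons, 137, 284, 187 and 202. Both passed against the control (0.66 and 0.90) and neither on azacytidine (-0.20 and 0.14). Their reads assigned to a transcript numbered 106, 143, 113 and 116 in NOVA1 and 97, 122, 82 and 103 in CELF4. Those without a transcript numbered 44, 119, 111 and 75, and 40, 162, 105 and 99. Most of the rise in knockdown against control lay in the latter. The difference between the pairs was -0.86 in NOVA1 (adjusted p = 0.000852) and -0.77 in CELF4 (adjusted p = 0.00498), past the adjusted test in both genes and under the 2-fold limit. These genes were named after their values were seen. Over all 61 the ratios ran from -1.01 to 1.37 without azacytidine and from -3.79 to 1.53 with it.

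**Figure D3:**
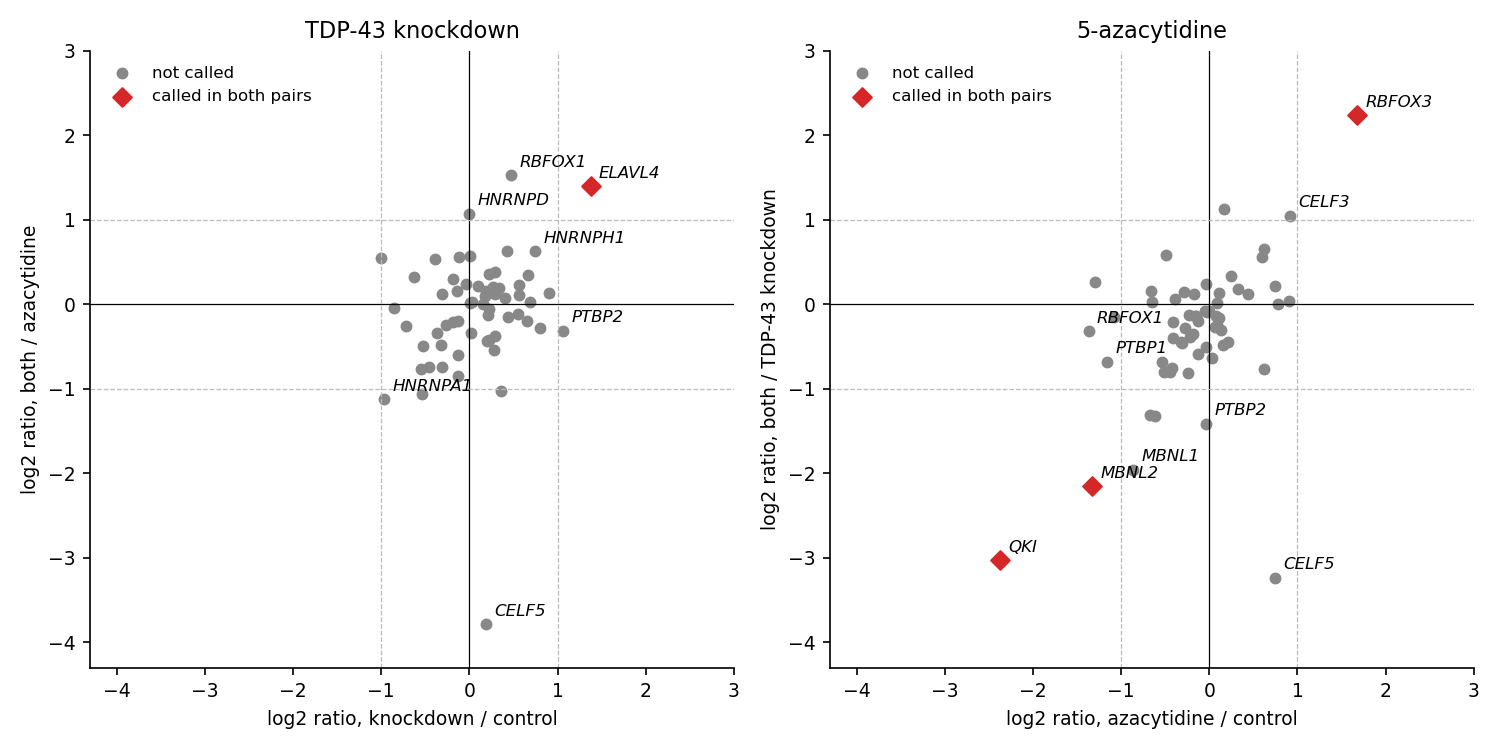
Log2 ratios of the 61 gene identifiers in the pair without (x axis) and with (y axis) the other treatment, for the knockdown at left and azacytidine at right; dashed lines mark 2-fold, diamonds the genes called in both pairs. The panels share libraries. ELAVL4 is the only diamond at left, and RBFOX3, MBNL2 and QKI are those at right.

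More genes were called with azacytidine than with the knockdown: 2.93% of the 8145 were called higher and 6.86% lower, 9.8% in all. Among members 1 was called higher and 2 lower. The members' median log2 ratio was -0.13 against control and -0.20 against the knockdown, beside 0.05 and -0.09 over all genes. In azacytidine against control alone 1 member passed as higher and 6 as lower, where 16.6% of genes passed, and in both treatments against the knockdown 3 and 7, where 26.4% did. Of the 61, 30 were negative in both pairs and 13 positive in both, beside 2905 and 2793 of the 8145 genes tested.

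RBFOX3 (chr17:79089345-79611263), known as the neuronal nuclear antigen NeuN, had 35 reads in the control, 39 in the knockdown, 90 with azacytidine and 131 with both. The log2 ratios were 1.68 (1.11 to 2.30, adjusted p = 2.06e-08) and 2.23 (1.72 to 2.80, adjusted p = 3.64e-19). Its transcript reads numbered 17, 21, 40 and 44, of which 74.6% belonged to unannotated transcripts. RBFOX2 had 188, 237, 226 and 247 reads and rose by less, with ratios of 0.59 (adjusted p = 0.000325) and 0.56 (adjusted p = 0.000118). RBFOX1 had 41 reads with azacytidine against 134 in the control (-1.37, adjusted p = 2.93e-07), but with the knockdown present 117 against 206 (-0.31, adjusted p = 0.123).

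QKI (chr6:163414000-163578592), a STAR protein of progenitors and glia, had 100, 178, 15 and 15 reads. The ratios of -2.37 (-3.30 to -1.62, adjusted p = 5.77e-11) and -3.03 (-3.94 to -2.31, adjusted p = 1.14e-23) were the lowest among members when ranked by the smaller of the 2. MBNL2 (chr13:97221434-97394120), a muscleblind protein that sets mature splicing patterns, had 58, 78, 18 and 12 reads (-1.33 and -2.15, adjusted p = 0.00222 and 1.11e-07). MBNL1 had 35, 68, 15 and 12 reads, with -0.87 (adjusted p = 0.129) and -1.95 (adjusted p = 4.32e-06). Of these, 12, 18, 13 and 8 were assigned to a transcript and 23, 50, 2 and 4 were not, so the lower number with azacytidine against control lay in the reads without a transcript. MBNL2 had 14, 28, 2 and 3 assigned reads, and QKI 92, 159, 13 and 12. PTBP1, which represses neuronal exons in progenitors, had 147, 143, 52 and 63 reads and ratios of -1.16 (-1.66 to -0.71) and -0.68 (-1.13 to -0.25), both past the exact binomial test (adjusted p = 2.79e-06 and 0.00496). In QKI, MBNL2 and PTBP1 both azacytidine libraries lay below both others, as the summed proliferation and progenitor markers given above did. MBNL2 was not tested with a minimum mean of 50 reads and was not called from sums of transcript counts or in DESeq2's model, and neither MBNL2 nor RBFOX3 was called from uniquely assigned reads, where PTBP1 and RBFOX1 were called lower beside QKI.

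CELF3, a neuronal CELF protein, had 88, 114, 133 and 167 reads (0.92 and 1.05, adjusted p = 3.65e-05 and 1.81e-08), just short of 2-fold in 1 pair. ELAVL3, the neuronal protein HuC, rose by 0.62 and 0.66 (adjusted p = 0.00307 and 0.00443). ELAVL2, or HuB, had 317, 404, 158 and 115 reads, with -0.68 and -1.31 (adjusted p = 1.46e-05 and 1.69e-18). Of the 12 SR proteins, 8 were negative in both pairs and 1 was positive; SRSF1, the founding member, had 135, 136, 70 and 38 reads (-0.62 and -1.33, adjusted p = 0.0158 and 6.85e-07). HNRNPC, which binds runs of U, had 197, 220, 115 and 89 reads (-0.45 and -0.80, adjusted p = 0.0358 and 3.01e-05). SRSF1, HNRNPC and ELAVL2 were named after their values were seen.

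**Figure D4:**
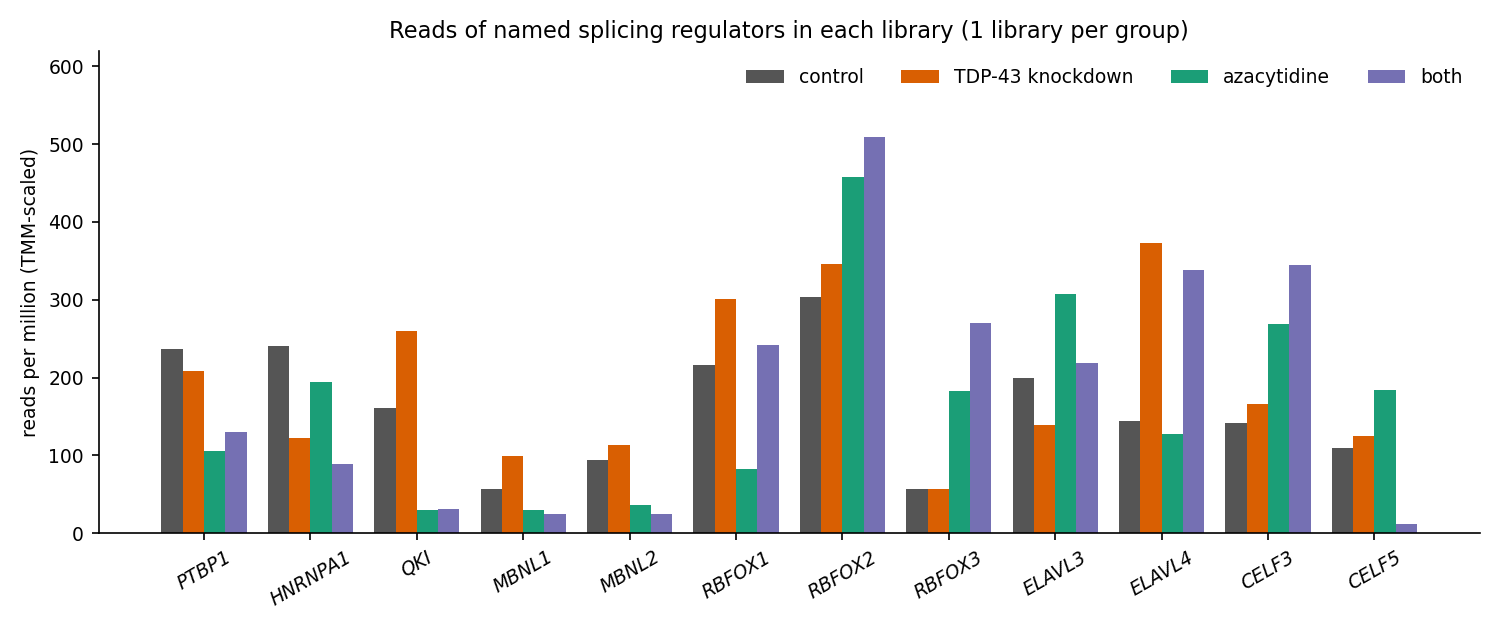
Level in TMM-scaled CPM of 12 members in the 4 libraries; each bar is 1 library, with no replicate. RBFOX3 and CELF3 are higher, and QKI, MBNL2 and PTBP1 lower, in both azacytidine libraries, while CELF5 is at 12.4 with both treatments against 110 to 184 elsewhere.

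In 4 members the knockdown ratio differed between the backgrounds by at least 2-fold with an adjusted p under 0.05, where 8.9% of all tested genes did. CELF5, a brain CELF protein, had 68, 86, 91 and 6 reads, so that the library with both treatments alone was low. PTBP2 had 196, 453, 152 and 120 reads and HNRNPD 127, 140, 72 and 149. RBFOX1, given above, was the fourth. No member passed the limits in opposite directions in the 2 pairs.

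Transcript usage was tested for 264 transcripts in 54 member genes. With the knockdown 1 was called higher and 2 lower, where 0.376% and 0.35% of the 15446 tested were. HNRNPF, a G-run binding paralogue of HNRNPH1, used ENST00000443950.6 in 23 of 54 reads in the control, 0 of 45 in the knockdown, 12 of 45 with azacytidine and 0 of 31 with both (adjusted p = 6.02e-06 and 0.028). A count of 0 allows up to 3 reads in those libraries. ENST00000544000.5 took 9 of 54, 21 of 45, 15 of 45 and 22 of 31 (adjusted p = 0.0304 and 0.0482). Both encode the same 415 codons, and they have 3 and 4 exons. The remaining call was the SRSF11 transcript called lower above.

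With azacytidine 2 transcripts were called higher and 1 lower, where 0.479% and 0.641% were. HNRNPA1 used ENST00000546500.5 in 0 of 106, 9 of 57, 29 of 72 and 20 of 41 reads (adjusted p = 3.68e-11 and 0.013). ENST00000677249.1 went from 69 of 106 and 25 of 57 to 14 of 72 and 3 of 41 (adjusted p = 3.09e-07 and 0.00238). Both predict nearly the same protein, of 320 and 319 codons, and differ in length, 4121 and 2278 bases. SRRM1 used ENST00000705663.1 in 56.0%, 35.3%, 85.1% and 73.8% of 47 to 116 reads (adjusted p = 0.0204 and 8.40e-05). The calls in this and the preceding paragraph were not made from uniquely assigned or full-length reads alone, which are fewer.

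Of the 5002 cassette exons tested, 83 lay in 39 members. With the knockdown none of the 83 was called, where 0.28% of all were higher and 0.22% lower, and 2 had an unadjusted p under 0.05 in both pairs. With azacytidine 1 was called, where 1.56% were higher and 0.68% lower. This was the 42-base exon of SRRM1 shown above, included in 56 of 82 reads in the control (68.3%), 57 of 113 in the knockdown (50.4%), 44 of 47 with azacytidine (93.6%) and 57 of 59 with both (96.6%). Both azacytidine libraries lay above both others. It was not called from uniquely assigned or full-length reads. Outside the calls, exons of 152 and 72 bases in CELF1, which binds GU-rich elements, were included together in 61 of 141 reads in the control (43.3%) and 15 of 96 in the knockdown (15.6%, adjusted p = 0.000321), but in 38 of 101 and 28 of 82 with azacytidine. A 39-base exon of ELAVL2 was in 70.1%, 67.0%, 91.1% and 56.7% of reads, with a high share only with azacytidine alone.

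Unannotated transcripts made up 36 of the 496 and occurred in 20 members. They held 88.1% of the transcript reads of CELF5, 74.6% of RBFOX3, 58.1% of ELAVL2, 52.2% of KHDRBS3, a neuronal STAR protein also called SLM2, and 46.9% of SRSF5. The annotation was made from the 4 libraries together, so a transcript absent from a library was still counted there.

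Other genes of the splicing machinery were taken from lists written for this description, and their calls can be read beside the 0.97% of all tested genes called with the knockdown and the 9.8% called with azacytidine. Of 52 core spliceosome genes 39 were tested, with none called for the knockdown. With azacytidine SNRPN, the neuronal Sm protein, was higher, at 96, 55, 205 and 128 reads, and SNRPD3, an Sm core protein, lower, at 53, 54, 16 and 13. Of 14 SR protein kinase genes 12 were tested and none was called for either treatment. Of 65 other splicing regulators matched, 56 were tested and none was called for the knockdown. With azacytidine PCBP4, a poly(C)-binding protein, was higher, at 111, 128, 238 and 317 reads, while MSI2, a progenitor RNA-binding protein, fell, at 204, 188, 33 and 52, as did RAVER2, a PTB corepressor, at 50, 43, 6 and 5.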

How the data were processed

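Column and transcript names in the deposited files give minimap2 as the aligner, hg38 as the build and Bambu as the source of transcripts, per the file headers; versions are not given in the sources used here, nor is whether counting used strand. The deposited gene and transcript tables hold estimated counts; full-length and uniquely assigned counts were also deposited by the authors. Every gene count was even within 0.00031, so counts of all tables were divided by 2 and rounded for tests. Members and lists were chosen with earlier results of these data known. Named were TARDBP, every member called, the 4 highest and 4 lowest members per treatment with the same sign in both pairs, ranked by the smaller ratio, and genes with a stop-changing exon. The support rule for those exons and the measure of reads without a transcript were chosen after values were seen.

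Libraries were scaled by TMM (edgeR 4.0.16); pairs were tested by the exact binomial test (scipy 1.17.1, pseudocount 0.5 for ratios) or Fisher's exact test, with Benjamini-Hochberg adjustment over all features. The 2 pairs of a contrast share no library. A transcript needed 10 reads in all and its gene a mean of 20 transcript reads per library; a cassette exon needed 10 reads on each side and a mean of 20 informative reads. Usage, exons and reads without a transcript were called at an adjusted p under 0.05 and a change of at least 10 percentage points, the same way in both pairs. Frames were read from each transcript's own start in GENCODE 29, otherwise from the reference coding start. Intervals and the limit of 3 reads cover counting error only, since amplified reads are not independent molecules. The tests were checked on simulated data that held counting error only, so the check cannot speak to variation between libraries. DESeq2 1.42.0 served as an alternative. Deposited CPM values were not used.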

Additional observations from a re-analysis of the deposited data

Results flagged for a closer look

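Members were singled out where the knockdown log2 ratio with azacytidine differed from that without it, by a test of the difference itself adjusted over all 8145 genes. The difference was -3.98 in CELF5 (adjusted p = 4.67e-13), -1.37 in PTBP2 (adjusted p = 1.88e-08), 1.08 in HNRNPD (adjusted p = 0.00177) and 1.06 in RBFOX1 (adjusted p = 0.00775). With 1 library per group, each difference compares 4 libraries and has no replicate. In CELF5 the low library held 6 reads. In PTBP2 the reads without a transcript stood at 37.2%, 55.8%, 38.2% and 28.3%, in the order control, knockdown, azacytidine and both. In the same order they stood at 2.36%, 20.7%, 13.9% and 46.3% in HNRNPD, and at 52.2%, 60.7%, 7.32% and 73.5% in RBFOX1. Over all 8145 genes, 8.9% passed the same rule, an adjusted p under 0.05 and a difference of at least 2-fold.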

How the results depend on the processing

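No paired analysis was possible because each group has 1 library, and all share only the replicate number 1. For the knockdown, 2 members were called with total counts and with DESeq2 size factors (ELAVL4 and HNRNPA1), and 0 from sums of uniquely assigned counts, sums of estimated transcript counts (added after the data were seen), edgeR's additive model and DESeq2's, where all genes called fell from 79 to 11, 11, 3 and 9; in both models 2 had an unadjusted p under 0.05 and a 2-fold ratio, ELAVL4 and HNRNPA1. The azacytidine calls numbered 2 or 3 under every alternative run; QKI was among them each time. Usage calls of transcripts were 0 (full-length), 0 (unique) and 5 (counts as deposited, not halved) for the knockdown, and 1, 0 and 11 for azacytidine. Cassette exon calls were 2 as deposited for the knockdown, and 0 from unique and 4 from deposited counts for azacytidine. Calls in reads without a transcript were 1 and 0 at 20 percentage points, and 3 for azacytidine as deposited. The share with a stop before the last junction by more than 50 bases was 6.26% (knockdown) and 7.59% (azacytidine) from full-length reads, and 7.36%, 6.84% and 8.59% (both) from unique reads; with any stop before the last junction it was 23.1%, 22.3%, 21.7% and 24.2%. With total counts the members' median log2 ratio was -0.0444 and -0.0448 in the knockdown pairs, and -0.0128 for both treatments against the knockdown. ELAVL4 turned to -0.57 and -0.32 with uniquely assigned counts. Causes of these differences were not tested. The unique and full-length tables hold fewer reads, and a deposited value of 2 was taken as 1 read.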
